A study of Mus musculus with 15 samples.

Results

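The contraction of a heart muscle cell is set by calcium that leaves the sarcoplasmic reticulum, the internal calcium store, and is pumped back. The 10 genes described here encode parts of that store and proteins that act with it. Atp2a2, Pln and S100a1 encode the pump and its regulators. Ryr2, Trdn and Jph2 encode the release channel and the proteins that hold it at the junction with the cell surface. Casq2, Casq1 and Hrc encode the calcium buffers of the store, and Slc8a1 the exchanger that takes calcium out of the cell. These 10 genes were chosen by name, and every probe set that the platform annotation ties to exactly 1 of them was taken. That gave 28 of the 45101 probe sets of the table, for 10 of 16627 named genes with a tested probe set. Of the 10 genes, 3 had 1 probe set (Casq2, Casq1 and Hrc) and 7 had several.

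Whole hearts of male mice aged 10 weeks were measured on 1-colour Affymetrix arrays, with 1 array per mouse: 7 mice heterozygous for Lmna H222P and 8 control mice. Lmna encodes lamin A and C, which line the inside of the nuclear envelope, and the H222P change in them is known from patients with Emery-Dreifuss muscular dystrophy, in which the heart is affected. The labels name no strain, litter or batch. The p-values set the difference between the groups against the spread between mice within a group. An unnamed batch or litter that followed genotype could not be told apart from genotype. In whole-heart RNA, fewer cells of a type and less RNA per cell cannot be told apart.

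In each beat, calcium entering through surface channels opens the ryanodine receptor Ryr2, and the store empties into the cell. The pump encoded by Atp2a2, SERCA2, then refills the store, with phospholamban (Pln) as its brake. Calsequestrin holds the calcium inside the store close to the release channel, and junctophilin 2 (Jph2) ties the store to the surface membrane. A lower level of the pump relative to phospholamban is well known from failing hearts.

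The stretches upstream of the gene start are printed for 3 of the genes: Hrc, Pln and Casq2. Hrc had the lowest p among the brightest probe sets of the 10 genes. The signal of Pln moved array by array with that of the pump (r = 0.975), but that of Myl2, outside the 10 genes, did so more closely (r = 0.995). Casq2 was the only one of the 8 genes in the promoter table with a match to a MEF2 site. MEF2 is a transcription factor of muscle. Each line gives the 250 bases before the start, 5′ to 3′ on the strand of the gene, from RefSeq on build GRCm38.p6, with matches in capitals. The motifs searched on both strands were TATAAA, a form of the TATA box, the MEF2 site, and the E-box of helix-loop-helix factors, CANNTG.
Hrc promoter (chr7:45335019-45335268, plus strand): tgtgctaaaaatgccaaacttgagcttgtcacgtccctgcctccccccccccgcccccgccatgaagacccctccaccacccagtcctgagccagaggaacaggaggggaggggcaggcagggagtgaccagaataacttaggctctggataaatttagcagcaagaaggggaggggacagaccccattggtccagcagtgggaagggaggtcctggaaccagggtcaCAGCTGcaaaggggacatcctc
Pln promoter (chr10:53337436-53337685, plus strand): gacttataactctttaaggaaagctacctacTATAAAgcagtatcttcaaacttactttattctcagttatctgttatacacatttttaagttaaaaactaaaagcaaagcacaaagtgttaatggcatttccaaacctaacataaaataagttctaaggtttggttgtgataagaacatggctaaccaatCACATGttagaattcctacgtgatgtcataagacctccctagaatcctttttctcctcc
Casq2 promoter (chr3:102086165-102086414, plus strand): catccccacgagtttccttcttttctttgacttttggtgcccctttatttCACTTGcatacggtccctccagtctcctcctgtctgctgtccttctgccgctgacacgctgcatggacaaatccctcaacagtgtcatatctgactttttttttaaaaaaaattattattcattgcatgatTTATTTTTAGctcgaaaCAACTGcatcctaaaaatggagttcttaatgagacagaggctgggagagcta

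The capitals mark 1 CANNTG in Hrc, 1 TATAAA and 1 CANNTG in Pln, and 2 CANNTG and the MEF2 match TTATTTTTAG in Casq2. The MEF2 match begins 69 bases before the start of Casq2, and the TATAAA match 219 bases before that of Pln. The table of promoters held 8 of the 10 genes, and 7 of these 8 had at least 1 CANNTG. Among all 32851 promoters of that table, 66.2% held a CANNTG in the same 250 bases, 12.4% a TATAAA and 2.92% a MEF2 match. These matches describe letters and no binding was measured.

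None of the 28 probe sets differed between heterozygous and control hearts past the threshold. All 28 had log2 signals above 4 on at least 7 arrays and were tested with limma's moderated test, adjusted by Benjamini-Hochberg over all 38870 tested probe sets, and the threshold was an adjusted p of 0.05. The count was 0 of 28, with a smallest adjusted p of 0.177, where 0.252% of all tested probe sets passed (0.09% higher and 0.162% lower in heterozygous hearts). At an unadjusted limma p under 0.05 there were 3 of 28 (a weaker probe set of Atp2a2, Hrc, and a weaker probe set of Jph2), where 14.6% of all tested probe sets reached that level. In none of the 28 were the groups free of overlap, which held for 0.468% of all tested probe sets. None of these 3 shares among the members stood above that among all tested probe sets.

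Each gene is described first by its brightest probe set, the one with the highest mean over all 15 arrays. The differences of the 10 brightest probe sets, heterozygous minus control, ran from -0.43 for Hrc to 0.18 for Ryr2 on the log2 scale, and 8 of the 10 were smaller than 0.25 in either direction. Their 95% intervals reached between 0.27 and 0.58 to either side. Their median difference was -0.09, against -0.11 for all tested probe sets, and 8 of the 10 lay below 0 in a table whose own median is below 0.

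**Figure D1:**
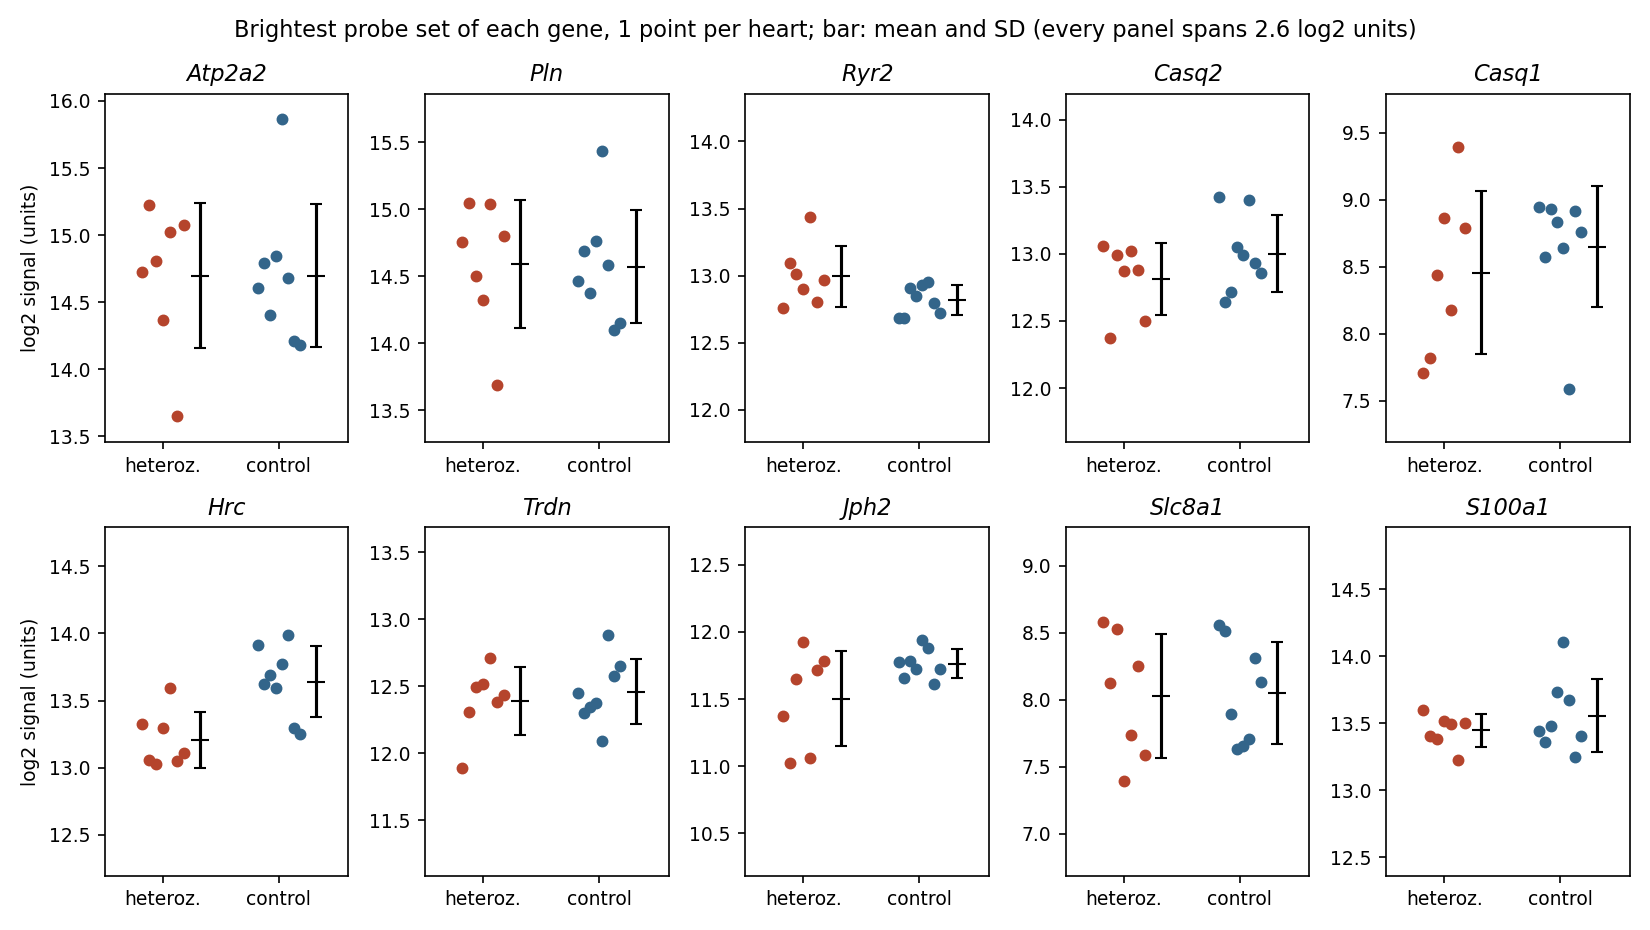
Log2 signal of the brightest probe set of each gene, 1 point per heart, with heterozygous hearts left of control hearts and the mean and SD beside each group. Every panel spans the same range, and the groups overlap in all 10 genes. Hrc has all 7 heterozygous hearts below the control median.

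The pump gene Atp2a2 had almost the same mean level in both groups. Its brightest probe set gave 12835.1 units as the lowest, 28702.5 as the median and 38346.2 as the highest value in heterozygous hearts, against 18535.6, 25605.6 and 59611.5 units in control hearts. The heterozygous range was shifted down at both ends, while the median lay above that of the controls. Geometric means were 26529.9 units in heterozygous hearts and 26564.0 units in control hearts, a ratio of 0.999 with a 95% interval from 0.666 to 1.50 (adjusted p = 0.999). The interval is wide and leaves room for sizeable changes in either direction.

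Phospholamban (Pln) was likewise level between the groups. Its brightest probe set measured 13241.5, 27719.2 and 33824.4 units (lowest, median and highest) in heterozygous hearts, against 17576.8, 23553.3 and 44292.4 units in control hearts. The ratio of geometric means was 1.02, with an interval from 0.719 to 1.44 (adjusted p = 0.973). Its 2 other probe sets gave differences of -0.05 and -0.01 (log2), so all 3 stood close to 0.

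The wide spread of the pump and of phospholamban was shared between the genes. Heart 6 of the heterozygous group was the lowest and heart 5 of the controls the highest in the brightest probe sets of both. Over the 15 arrays their log2 signals correlated with Pearson's r = 0.975 and Spearman's rho = 0.968 (permutation p = 1e-05 for each, the smallest that 100000 permutations can give). Without these 2 hearts, r was 0.949. It was 0.964 within the 7 heterozygous and 0.991 within the 8 control hearts.

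The bright end of each array, taken as the log2 signal that its top 0.1% of probe sets exceed, moved with both genes. It lay between 13.65 and 14.83 on heterozygous arrays and between 14.02 and 15.26 on control arrays. Atp2a2 followed it with r = 0.981 and rho = 0.954, and Pln with r = 0.993 and rho = 0.993 (permutation p = 1e-05 for each, adjusted p = 1e-05 over the 3 relations computed). Without the 2 farthest arrays, r was 0.948 for Atp2a2 and 0.987 for Pln. Within the 7 heterozygous arrays r was 0.970 for Atp2a2 and 0.992 for Pln, and within the 8 control arrays 0.991 and 0.996. Relative to that level, the SD of Pln was 0.09 in heterozygous and 0.05 in control hearts, in place of 0.48 and 0.42 on the deposited scale. That of Atp2a2 was 0.18 and 0.16, in place of 0.54 and 0.53. Both genes are themselves at this end of the arrays: Atp2a2 lay on average 0.26 (log2) above that level in heterozygous and 0.25 above it in control hearts, and Pln 0.16 and 0.12. The relation is therefore in part built in, and its p-values are no independent evidence.

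**Figure D2:**
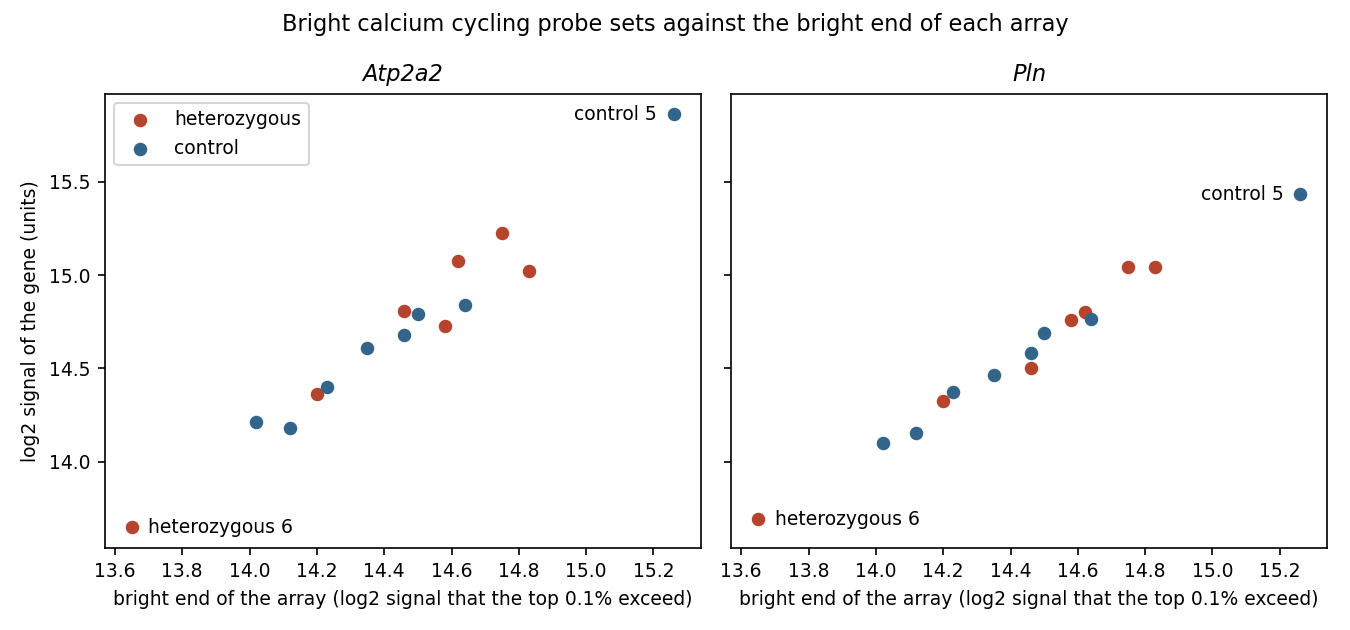
Log2 signal of the brightest probe sets of Atp2a2 and Pln against the bright end of the same array, the log2 signal that its top 0.1% of probe sets exceed, 1 point per heart. Points of both groups lie along 1 line, from heterozygous heart 6 at the low end to control heart 5 at the high end.

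The level of phospholamban was also set against that of the pump on the same array. Log2 Pln minus log2 Atp2a2 averaged -0.10 ± 0.15 in heterozygous hearts (SD, n = 7), against -0.13 ± 0.13 in control hearts (SD, n = 8). The groups differed by 0.03, well inside either SD. Heterozygous values ran from -0.31 to 0.04 and control values from -0.43 to -0.02, and they overlapped. The lowest value, -0.43, was that of control heart 5, whose bright end was the highest (15.26). The highest, 0.04, was that of heterozygous heart 6, whose bright end was the lowest (13.65). Heterozygous heart 5, with a bright end of 14.83, had 0.02. Whether this difference follows the bright end over the arrays was not tested. A difference between 2 probe sets shows unequal change only and does not give the amount of either protein.

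The genes most like Atp2a2 across the 15 arrays, outside the 10 members, were the ventricular myosin light chain Myl2 (r = 0.995), the ATP synthase subunit gene Atp5g3 (r = 0.994) and the respiratory complex III subunit gene Uqcrb (r = 0.992). All 3 were bright, with heterozygous geometric means of 31309.5, 24433.0 and 30540.8 units, and their likeness was not set against the bright end.

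Other probe sets of Atp2a2 ranged more widely. The next 3 in brightness gave differences of -0.04, -0.03 and 0.10 (log2). The fifth gave 530.3, 575.5 and 1114.5 units (lowest, median and highest) in heterozygous hearts, against 186.0, 295.4 and 919.1 units in control hearts. All 7 heterozygous values lay above the control median, and control heart 1 lay among them. The difference was 0.94 ± 0.29 (log2, SE), a ratio of 1.92 with an interval from 1.26 to 2.93, and limma's adjusted p was 0.177. The exact two-sided permutation test gave an unadjusted p of 0.00839. Leaving out 1 array at a time gave differences from 0.80 to 1.15, the highest without control heart 1 (limma's adjusted p = 0.0618). The sixth, with geometric means of 71.0 units in heterozygous and 44.2 units in control hearts, gave 0.68 (adjusted p = 0.426). Both were designed on expressed sequence tags, and which transcript form of the pump they read is not given in the sources used here.

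S100a1 encodes a small calcium sensor that binds the pump and the release channel. Its brightest probe set measured 9566.0, 11547.7 and 12370.6 units (lowest, median and highest) in heterozygous hearts, against 9721.3, 11259.3 and 17580.0 units in control hearts. The 2 medians were close, and control heart 5 stood above all others, as it did for the pump. The ratio was 0.928 (interval from 0.754 to 1.14, adjusted p = 0.765), and the other probe set gave a difference of -0.24 (adjusted p = 0.559).

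The release channel gene Ryr2 had the highest difference of the 10 brightest probe sets. Its values were 6929.2, 8025.7 and 11061.4 units (lowest, median and highest) in heterozygous hearts, against 6571.3, 7250.5 and 7933.0 units in control hearts. Of 7 heterozygous hearts, 4 were above the highest control, and heart 5 was the furthest out. The ratio was 1.13 with an interval from 0.938 to 1.37, without passing (adjusted p = 0.538). The exact permutation test gave an unadjusted p of 0.0581. Without heterozygous heart 5 the difference was 0.11 in place of 0.18 (log2). The weaker probe set of Ryr2 stood at a difference of 0.01, with an SD of 0.80 in heterozygous and 0.48 in control hearts.

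Junctophilin 2 was below control in both of its probe sets, neither of which passed. The brighter gave 2082.2, 3212.9 and 3879.5 units (lowest, median and highest) in heterozygous hearts, against 3130.0, 3449.1 and 3932.9 units in control hearts. Of the 7 heterozygous hearts, 3 lay below all controls, namely hearts 1, 2 and 5, while the other 4 lay within the control range. Their SD was 0.36 (log2), against 0.11 in controls, and the difference was -0.26 (interval from -0.59 to 0.07, adjusted p = 0.460).

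The weaker probe set of Jph2 measured 219.5, 366.6 and 543.3 units in heterozygous hearts, against 383.2, 554.1 and 1009.8 units in control hearts. All 7 heterozygous hearts were below the control median and 4 were below every control. Its difference was -0.77 ± 0.25 (log2, SE), the lowest of the 28, with an interval from -1.29 to -0.24 and an adjusted p of 0.194. The exact permutation test gave an unadjusted p of 0.00870. The log2 ratio of the 3′ to the 5′ Actb control probe set, a sign of RNA quality, was high in heterozygous hearts 2, 3 and 5 (1.69, 1.32 and 1.41) and in control heart 6 (1.23). Without these 4 arrays the difference of the brighter probe set of Jph2 was -0.05 in place of -0.26, and that of the weaker -0.43 in place of -0.77.

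Triadin (Trdn) anchors calsequestrin to the release channel. Its brightest probe set gave 3802.8, 5540.2 and 6712.8 units (lowest, median and highest) in heterozygous hearts, against 4365.9, 5467.1 and 7559.2 units in control hearts. The ranges lay almost on each other, with a ratio of 0.953 (interval from 0.761 to 1.19, adjusted p = 0.866). Of its 6 probe sets, 5 gave differences between -0.09 and 0.02. The weakest gave 0.75 with an adjusted p of 0.518. In that probe set, heterozygous hearts 1 and 5, at 1238.8 and 1463.2 units, were above every other heart, whereas the highest control had 539.9 units.

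The buffers of the store were all below control in their single probe sets on the deposited scale, Casq2 and Casq1 no longer so with arrays centred on their medians, and none passed. Cardiac calsequestrin (Casq2) measured 5297.7, 7536.7 and 8514.4 units (lowest, median and highest) in heterozygous hearts, against 6401.7, 7979.1 and 10970.9 units in control hearts. The ratio was 0.878 with an interval from 0.689 to 1.12 (adjusted p = 0.626). Control hearts 1 and 6, at 10970.9 and 10821.8 units, stood above all other hearts.

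Log2 Casq2 minus log2 Ryr2 on the same array averaged -0.18 ± 0.36 in heterozygous hearts (SD, n = 7), against 0.19 ± 0.29 in control hearts (SD, n = 8). The groups overlapped, and their difference of -0.37 was close to the SD within them. Probe sets differ in how they bind, so the sign of such a mean says nothing of which gene is more abundant.

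Hrc encodes the histidine-rich calcium-binding protein of the store, which binds triadin and the pump. Its values were 8343.3, 8818.2 and 12352.8 units (lowest, median and highest) in heterozygous hearts, against 9759.2, 12894.8 and 16245.0 units in control hearts. All 7 heterozygous hearts were below the control median and 4 were below every control, but heterozygous heart 5 reached well into the control range. The mean log2 signal was 13.21 ± 0.21 in heterozygous hearts (SD, n = 7) and 13.64 ± 0.26 in control hearts (SD, n = 8). The interval of the ratio, from 0.594 to 0.924, excluded 1, but the adjusted p was 0.218. The exact permutation test gave an unadjusted p of 0.00684.

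The genes most like Hrc across the 15 arrays were Hif3a, a regulator of the hypoxia response (r = 0.856), the palmitoyltransferase gene Zdhhc12 (r = 0.835) and Efcab15 (r = 0.833). All 3 were below control, at differences of -0.63, -1.20 and -2.24 without passing, and their heterozygous geometric means were 119.9, 56.4 and 6.2 units. Control heart 6, whose mean over the atrial markers was 10.48 (log2) against at most 7.67 in the other controls, had the highest Hrc signal of all 15, 16245.0 units. Control heart 1, with an atrial mean of 7.16, had 15450.5 units. Control hearts 7 and 8, with atrial means of 7.33 and 7.01, had 10067.1 and 9759.2 units. Heterozygous hearts, with atrial means from 9.85 to 12.92, had at most 12352.8 units. A relation of Hrc to the atrial markers over the arrays was not computed.

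Skeletal calsequestrin (Casq1) is the form typical of skeletal muscle. It measured 208.8, 346.9 and 672.0 units (lowest, median and highest) in heterozygous hearts, against 192.7, 445.5 and 493.6 units in control hearts. Heterozygous hearts 1, 2, 3 and 5, at 208.8, 226, 346.9 and 288.8 units, lay below every control except control heart 6. That control, at 192.7 units, was the lowest heart of all. Heterozygous heart 6, at 672.0 units, lay above every control. The remaining heterozygous hearts, at 442.8 and 465.6 units, lay among the other controls. The ratio was 0.874 with an interval from 0.586 to 1.30 (adjusted p = 0.779). Among 8 skeletal muscle markers 0 passed over all probe sets, and their summed signal ran from 182.7 to 778.7 units in heterozygous and from 156.6 to 785.2 units in control hearts, so both groups had them at a low level.

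The sodium-calcium exchanger gene Slc8a1 had weak probe sets throughout. The brightest gave 168.5, 278.8 and 382.8 units (lowest, median and highest) in heterozygous hearts, against 198.9, 259.1 and 376.3 units in control hearts. The ratio was 0.986 (interval from 0.709 to 1.37, adjusted p = 0.977). The 3 others gave differences of -0.03, -0.64 and 0.19, and the 2 weakest had geometric means of 71.5 and 56.5 units in heterozygous hearts, against 111.5 and 49.4 units in control hearts. These are near the array medians of 56.7 to 94.2 units, where signals scatter. Log2 Slc8a1 minus log2 Atp2a2 averaged -6.67 ± 0.75 in heterozygous hearts and -6.65 ± 0.78 in control hearts (SD), a difference of -0.02.

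**Figure D3:**
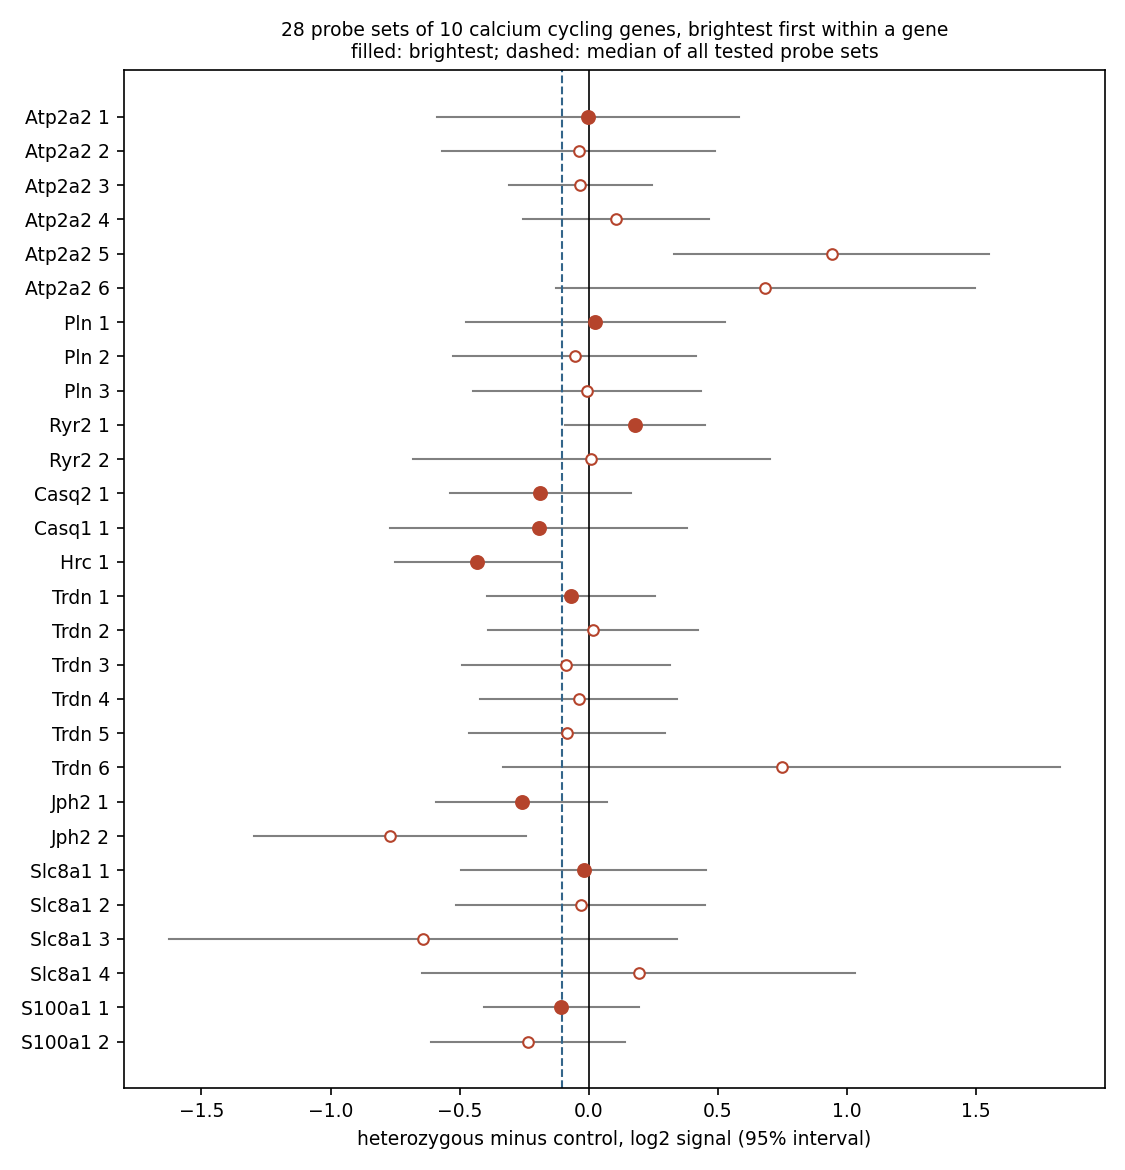
Heterozygous minus control difference in log2 signal for each of the 28 probe sets, with its 95% interval, numbered from brightest to weakest within a gene. Filled points are the brightest probe sets, and the dashed line is the median of all tested probe sets at -0.11. The points far from 0 are weaker probe sets of Atp2a2, Trdn, Jph2 and Slc8a1, and only those of Atp2a2 (the fifth), Hrc and Jph2 (the second) have intervals that leave out 0.

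The sign of most differences moved with the scaling of the arrays, which shifts the members of an array together. On the deposited scale 9 of 28 differences were above 0. With each array centred on its median, 23 of 28 were above 0 and 5 below. The median of the 28 was then 0.17 and that of all tested probe sets 0.10. The deposited scale had medians of -0.04 for the members and -0.11 for all tested, so both moved up alike. After quantile normalization 10 of 28 were above 0, with a median of -0.05 against -0.02 for all tested. Centred on the bright end, a scaling added once the values were known, 11 of 28 were above 0. Of 12 probe sets followed singly (the 10 brightest, the fifth of Atp2a2 and the second of Jph2), Hrc and both of Jph2 stayed below 0 under these 4 scalings. The brightest of Ryr2 and of Pln and the fifth of Atp2a2 stayed above 0 under the same scalings. Hrc fell short of the threshold in each, with differences of -0.48 after quantile normalization (adjusted p = 0.182) and -0.23 after centring on the median (adjusted p = 0.543).

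**Figure D4:**
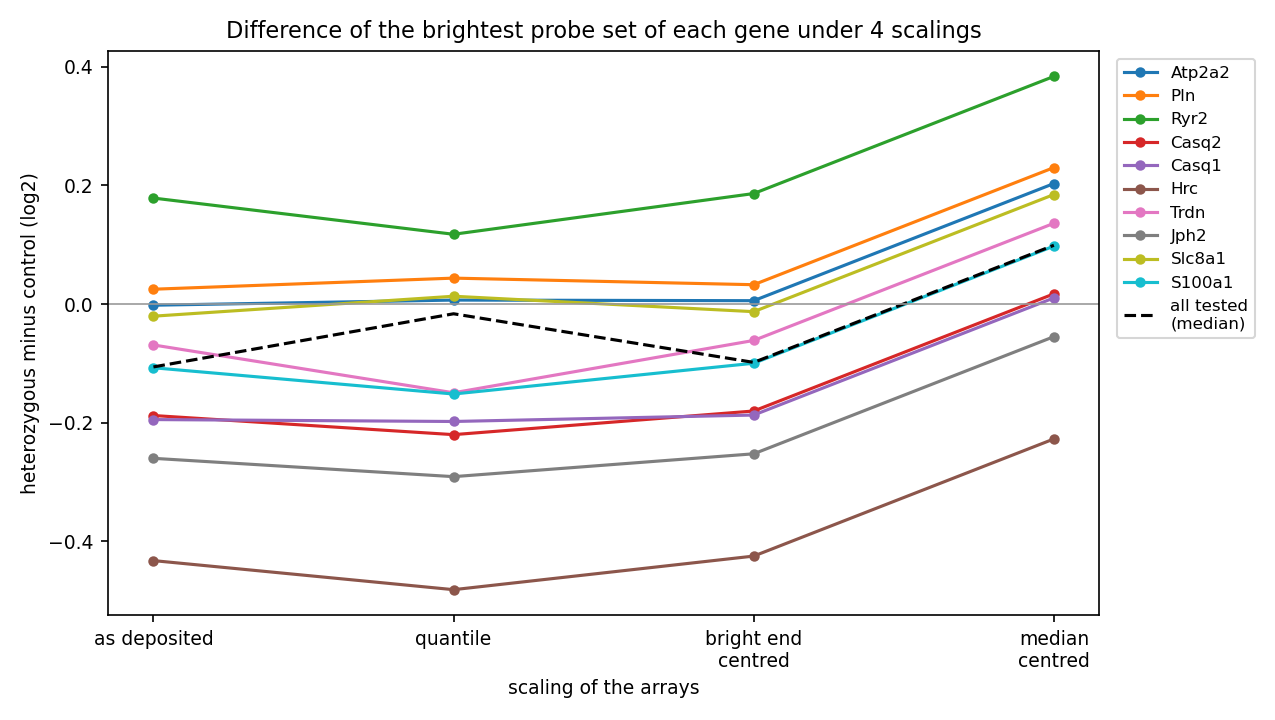
Heterozygous minus control difference (log2) of the brightest probe set of each gene under 4 scalings of the arrays, with the median of all tested probe sets as a dashed line. Lines join the values of 1 gene. Ryr2 stays highest and Hrc lowest, and centring on the median lifts every gene.

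Of 38 other genes that act with the calcium store, in 4 lists by role, 34 had a tested probe set. Of these 1 rose and 0 fell past the threshold, where 0.09% of all tested probe sets rose and 0.162% fell. At an unadjusted limma p under 0.05 there were 5 of 34, near the 14.6% of all tested probe sets. The gene that rose was Sln, sarcolipin, an atrial inhibitor of the pump, with geometric means of 849.4 units in heterozygous and 10.2 units in control hearts (adjusted p = 0.0122). The control median of 6.0 units lay below the array medians of 56.7 to 94.2 units, where signals scatter. The highest control, at 406.7 units, was above the lowest heterozygous heart, at 241.0, and 5 of 7 heterozygous hearts were above every control. Sln is also 1 of the atrial markers described below. The other probe set of Sln gave a difference of -0.94 without passing. Among the other pump partners, Hax1, whose protein binds phospholamban, stood at 1.38-fold (adjusted p = 0.354).

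Of 12 junction partners 0 passed, with a median difference of 0.00. Asph, whose locus encodes junctin, a partner of triadin, stood at 0.655 of control with 7 of 7 heterozygous hearts below the control median (adjusted p = 0.210), and its 5 other tested probe sets ran from -0.53 to 0.48. Cacna1c, the pore subunit of the surface calcium channel, stood at 1.28-fold with 5 of 7 heterozygous hearts above every control (adjusted p = 0.240), and its other probe set at a difference of 0.52. Of the kinases, phosphatases and their regulators 11 were tested and 0 passed, with a median difference of 0.10. The 2 lowest p among them were those of Prkaca, the catalytic subunit of protein kinase A, at 1.15-fold (adjusted p = 0.570), and Ppp1cb, a catalytic subunit of protein phosphatase 1, at 1.11-fold (adjusted p = 0.617). Of 8 genes of other calcium release and removal 7 were tested and 0 passed, with a median difference of -0.16. The surface pump gene Atp2b1 stood at 1.45-fold (adjusted p = 0.242), with its 2 other probe sets at -0.43 and 0.45. The inositol trisphosphate receptor gene Itpr2 stood at 0.768 of control (adjusted p = 0.451), and its other tested probe sets ran from -1.38 to 0.07. Medians of the lists can be read against -0.11 for all tested probe sets.

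**Figure D5:**
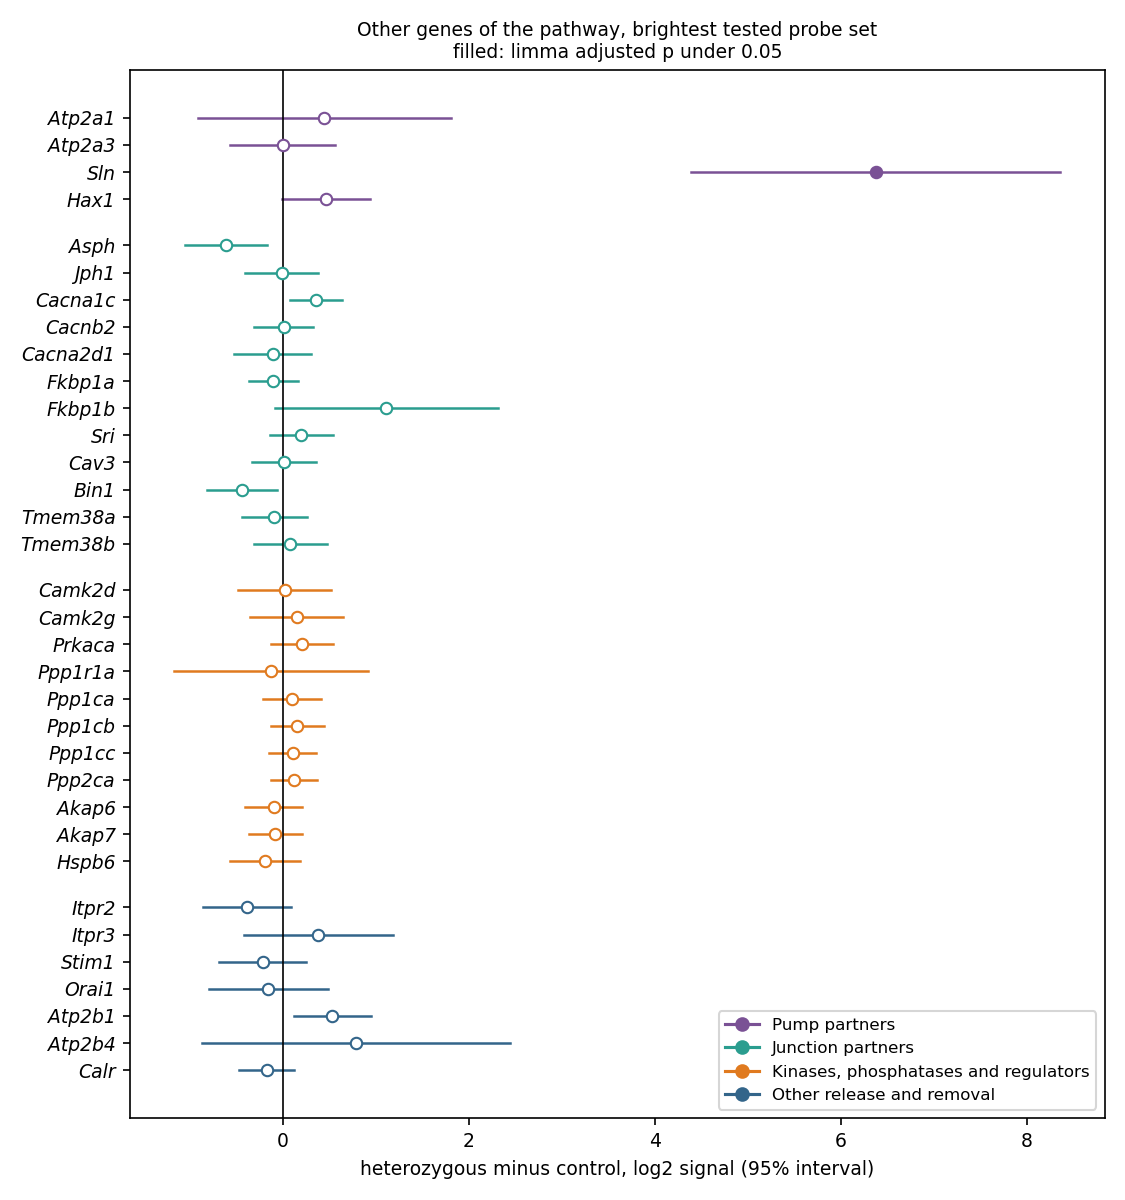
Heterozygous minus control difference in log2 signal of 34 other genes of the pathway, each in its brightest tested probe set, with the 95% interval and grouped by role. The filled point is Sln, the only gene past the threshold; the intervals of Asph, Cacna1c, Bin1 and Atp2b1 also leave out 0, and these 5 of 34 are near the 14.6% of all tested probe sets.

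Some atrial and blood markers differed between the groups past the threshold, and no tested marker of the other cell types did. Of 6 ventricular muscle markers 0 passed, and their summed signal ran from 90584.7 to 249741 units in heterozygous and from 118742 to 374088 units in control hearts. Of 4 atrial markers 3 rose (Sln, Myl7 and Myl4), where 0.09% of all tested probe sets rose. Their summed signals ran from 6377.3 to 39682.1 units in heterozygous and from 5519.1 to 10345.2 units in control hearts. Of 5 blood markers 2 fell (Alas2 and Ppbp), where 0.162% of all tested probe sets fell. The sums of the 5 ran from 1697.7 to 3365.7 units in heterozygous and from 3429.4 to 4243.3 units in control hearts, without overlap. The groups of Slc4a1, Bpgm and Ppbp did not overlap, as in 0.468% of all tested probe sets, while those of Alas2 and Pf4 did. Of 4 fibroblast markers 0 passed, and their sums ran from 13176.6 to 21500.5 units in heterozygous and from 6798.5 to 10832.1 units in control hearts, without overlap. Dcn, with geometric means of 11941.1 units in heterozygous and 6487.3 units in control hearts, made up most of these sums. Its groups did not overlap either, while those of the 3 other fibroblast markers did. The log2 Actb ratio ran from 0.33 to 1.69 in heterozygous and from 0.29 to 1.23 in control hearts. The part of these differences in the values of the calcium cycling genes was not tested.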

How the data were processed

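The deposited values are intensities, 1 linear signal per probe set and array. The submitters' processing notes name GCRMA, but the deposited intensities were linear, from 0.1 to 80754.9, with a mean of 250.0 on every array after trimming 2% at each end, so the method of summary cannot be settled from the table. No detection calls or scan dates were used here. Of 45101 probe sets, 34958 had 1 gene symbol in the platform annotation, and only these were named.

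Signals were log2-transformed with no pseudocount, and control probe sets were left out. The 38870 probe sets with a log2 signal above 4 on at least 7 of 15 arrays were tested with limma (version 3.58.1, R version 4.3.3), which fitted lmFit and then eBayes with genotype as the single term and Benjamini-Hochberg adjustment. On simulated arrays of this comparison with the same number of probe sets, the test recovered 0% of changes of log2 0.5, 32% of 1, 62% of 2 and 94% of 4. A fold change is a ratio of geometric means. The number of arrays limits the precision. Exact and permutation tests used scipy 1.17.1 in Python 3.11.15, and figures matplotlib 3.10.9.

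The members, the lists of other genes and the alternatives were chosen with earlier results of these data known. Named genes were the members, the genes of the 4 lists that passed or had the 2 smallest p, and the 3 genes most like Atp2a2 and Hrc. Bin1 was named after its value was seen. Itpr1 and Plin1 were not analysed here, and some other listed genes are not reported. Of fat markers (Adipoq, Cidec), endothelial (3), macrophage (3) and smooth muscle markers (3), 0 passed.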

Additional observations from a re-analysis of the deposited data

Results flagged for a closer look

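In groups of 7 and 8 hearts, 24 sets of values (2 groups for the brightest probe set of each gene and for the weaker probe sets of Atp2a2 and Jph2 that are described in detail) were searched for a heart that stood apart by Dixon's criterion, and 3 were found, where chance gives about 1 in 20. Control heart 5 had 59611.5 units of Atp2a2 in its brightest probe set, while the other 7 controls lay between 18535.6 and 29347.5. Without it, the Atp2a2 difference was 0.16 (log2) in place of about 0. Control heart 6, the control with the highest atrial markers, had 192.7 units of Casq1, while the other controls lay between 381.1 and 493.6. Without it, the Casq1 difference was -0.35 (log2) in place of -0.19. Heterozygous heart 2 had 1114.5 units in the fifth probe set of Atp2a2, while the other heterozygous hearts lay between 530.3 and 632.5.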

How the results depend on the processing

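No calcium cycling probe set passed under any of the 28 alternatives (13 other settings and 15 fits that each leave out 1 array), with adjusted p of at least 0.0618. That lowest value was for the fifth probe set of Atp2a2 without control heart 1. The count over all tested probe sets, 98, was 192 with the log2 filter at 6, 65 after median centring and 65 after quantile normalization, 12 after bright-end centring (added after seeing the data), 287 with a floor at 6, 312 with a trended and robust prior, 0 with the atrial mean and 0 with the blood mean as a covariate, and 19 to 154 with 1 array left out. Both covariate means themselves differed between the groups. The atrial mean ran from 9.85 to 12.92 (log2) in heterozygous and from 6.86 to 10.48 in control hearts. The blood mean ran from 7.62 to 8.26 and from 8.87 to 9.25. A count of 0 with such a covariate therefore cannot be read as an absence of differences. Centring on the median gave 51 higher and 14 lower, quantile normalization 37 and 28, and the deposited scale 35 and 63. With the replicate number as a block 1 probe set passed. Same-numbered arrays deviated together with correlations from -0.06 to 0.06, and 1 of 7 correlated best with its own number. These values gave no sign that the numbers pair the mice, but they cannot exclude a weak pairing. The block put Pln at -0.034.

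Signs turned under several settings. Median centring gave 0.20 for Atp2a2, 0.017 for Casq2, 0.010 for Casq1, 0.14 for Trdn, 0.18 for Slc8a1 and 0.10 for S100a1. Quantile normalization gave 0.0068 for Atp2a2 and 0.013 for Slc8a1, bright-end centring 0.0058 and array weights 0.029 for Atp2a2. The Actb ratio as a covariate gave -0.084 for Pln and 0.0034 for Casq1, and leaving out the 4 arrays of highest ratio -0.17 for Pln. The atrial mean as a covariate gave 0.10 for Atp2a2, -0.13 for Ryr2, 0.62 for Casq1 and 0.24 for Slc8a1. The blood mean, which does not overlap between the groups, gave -1.22 for Atp2a2 (its sign unchanged), -0.66 for Pln, -0.0097 for Ryr2, 0.27 for Casq1, 0.45 for Slc8a1, -0.069 for the fifth probe set of Atp2a2 and 0.12 for the second of Jph2, which on the deposited scale had the highest and the lowest difference of the 28. Leaving out 1 array at a time gave -0.090 to 0.17 for Atp2a2, -0.050 to 0.18 for Pln, -0.12 to 0.014 for Trdn and -0.11 to 0.085 for Slc8a1. The cause was not tested. Hrc kept its direction in all 28, from -0.82 to -0.23, as did the brighter probe set of Jph2, from -0.76 to -0.05. The probe sets of Slc8a1 were weak, which limits what they can show.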
